A study of Mus musculus with 4 samples.

Results

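The nuclear genes of respiratory chain complexes I, II and III were followed in mammary tissue of mice labelled STAT5 KO and of mice labelled STAT5 WT. Members were all probe sets whose only gene symbol in the platform annotation began with Nduf, Uqcr or Sdhaf, or was Sdha, Sdhb, Sdhc, Sdhd or Cyc1. They numbered 120 of 34945 probe sets with 1 symbol and stood for 61 of 18193 genes. For each gene the probe set brightest on average over the 4 arrays (mean log2 signal) was used. Of the 61 genes, 44 belong to complex I by their symbol (34 subunits, 8 assembly factors, and Ndufa4 with its paralogue Ndufa4l2), 8 to complex II (4 subunits and 4 assembly factors) and 9 to complex III. The choice used symbols and no KO against WT value.

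RNA was hybridised to 2 Affymetrix arrays from KO mammary tissue and to 2 from WT mammary tissue. The title of the series names STAT5A, a transcription factor that prolactin activates, and luminal progenitors, the epithelial cells from which milk-secreting alveoli form. Tissue was taken at 6 days, and the event from which the days run is not given in the sources used here, nor are the deleted allele, any Cre driver, the strain or the age of the mice. Each array was taken as a separate mouse, since the design text speaks of a pair of mice for each genotype. Replicate numbers follow the order of deposit, only name an array, and pair no KO array with a WT array.

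Complex I takes electrons from NADH, complex II from succinate, and both pass them to coenzyme Q, from which complex III hands them to cytochrome c. Complexes I and III pump protons across the inner mitochondrial membrane on the way, and complex II does not. Each complex needs its subunits in fixed proportions, and most of the subunits are encoded in the nucleus. In the mammary gland, alveolar cells gain mitochondria as the gland prepares for lactation, and brown fat and oxidative muscle are also rich in them.

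The genotype was checked on the STAT5 genes, which are no members. The brighter Stat5a probe set gave 1836 and 861 on the KO arrays, against 2307 and 2061 on the WT arrays. The brighter Stat5b probe set gave 1069 and 712 on the KO arrays, against 1522 and 1506 on the WT arrays. Both were lower on each KO array than on either WT array, as were 27.5% of all tested genes. Neither passed the test (limma adjusted p = 0.246 for Stat5a and 0.102 for Stat5b). The labels do not say which part of which gene was deleted, so a probe set outside it would not check the genotype. Median signals were 121 and 124 on the KO arrays and 131 and 130 on the WT arrays.

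No gene of complexes I to III passed the test between KO and WT tissue, and most differences were small. Of the 61 genes, 60 were bright enough to be tested, 30 of them with a higher and 30 with a lower KO mean, and 0 passed the test in either direction (limma, Benjamini-Hochberg adjusted p under 0.05). Over all tested genes 292 of 11360 passed, or 2.57%, of which 1.21% were higher and 1.36% lower in KO. At an unadjusted p under 0.05 there were 4 members of 60, or 6.67%, against 21.3% of all tested genes. The median log2 difference, KO minus WT on the log2(signal + 16) scale, was -0.0017 over the members, against -0.0099 over all tested genes. The members' differences ran from -0.64 for Ndufs5 to 0.45 for Ndufc2, so 0 reached 2-fold, against 4.38% of all tested genes. All KO values lay on the same side of all WT values for 23 members, or 38.3%, against 53.7% of all tested genes.

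The limma intervals give the range of differences compatible with these arrays. For all 60 tested members, on the probe set used, the 95% interval of the difference lay within 2-fold in either direction. It did so for 83.5% of all tested genes. For 52 members, or 86.7%, it lay within 1.5-fold, against 44.9% of all tested genes. The median absolute difference was 0.11 over the members and 0.20 over all tested genes, and the median standard error was 0.13 over the members and 0.17 over all tested genes. The difference between the WT arrays was of a similar size to that between genotypes. Over the members the median absolute difference within a genotype was 0.079 for KO and 0.13 for WT, and 47 of the 60 members were brighter on WT replicate 1 than on WT replicate 2. Over all tested genes these medians were 0.18 for KO and 0.16 for WT, and 5671 of 11360 genes were brighter on WT replicate 1. Among genes above the 75th percentile of signal, where 54 members remained, the median absolute difference was 0.093 over the members and 0.18 over all genes, and 0 members passed, against 1.79% of all genes.

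**Figure D1:**
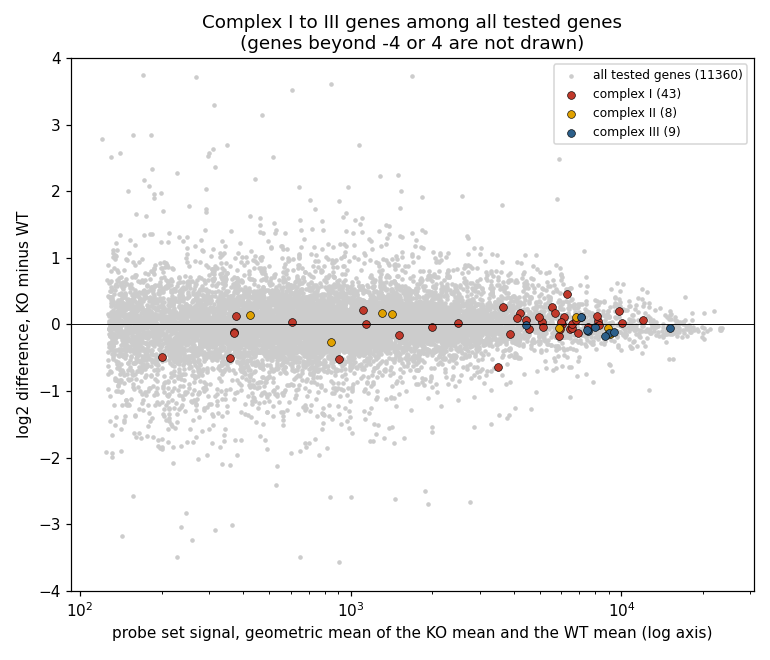
Log2 difference, KO minus WT, of each tested gene against its probe set signal on a log axis. Grey points are the 11360 tested genes, except those beyond the ends of the vertical axis, which are not drawn. All tested genes ran from -7.67 to 5.47. Coloured points are the 43 tested members of complex I, the 8 of complex II and the 9 of complex III. The members lie between -0.64 and 0.45.

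The stretches upstream of the member genes were compared for letters bound by known regulators of respiratory genes. RefSeq windows (GRCm38.p6) were matched by symbol for 51 of the 61 members, and the 250 bases before the gene start were searched on both strands. The motif of NRF1, a factor of many respiratory genes, written GCGCA, any base, then GCGC, was found in 7 of 51 members, or 13.7%, against 4.23% of 27025 genes. Its stricter spelling, with T as that base, was found in 1 member, or 1.96%, against 0.877%. The ETS motif CCGGAAG, bound by GABP and related factors, was found in 10 members, or 19.6%, against 7.83%. The oestrogen-related receptor motif AAGGTCA was found in 3 members, or 5.88%, against 4.70%, and the YY1 motif AAGATGGCG in 0 members, against 0.710%. The STAT5 motif TTCNNNGAA was found in 2 members, Ndufa8 and Ndufb6, or 3.92%, against 8.13%. Ndufa8 and Ndufb6 had log2 differences of -0.063 and -0.072. A match in such a window is a description of its letters and not evidence of binding.

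The windows of 4 members are printed 5′ to 3′ on the strand of the gene, to set the members with the lowest differences beside members of complexes II and III with small ones. Capitals mark motif matches. All 4 printed windows hold at least 1 match, which is not usual for the members. NRF1, ETS or YY1 letters were found in 16 of 51 members, or 31.4%, against 11.8% of 27025 genes. The printed members of complexes II and III were not those with the smallest differences. Sdhb and Uqcr10, with log2 differences of -0.047 and -0.0092, have windows without any of the motifs searched, and these are not printed. Ndufs5 lies on the minus strand at chr4:123718187-123718436 and holds AAGGTCA in reverse and 1 match to the NRF1 motif. Ndufaf4 lies on the plus strand at chr4:24897833-24898082 and holds the strict NRF1 spelling. Sdhd lies on the minus strand at chr9:50603850-50604099 and holds 1 match to the NRF1 motif and the ETS motif in reverse. Uqcrh lies on the minus strand at chr4:116075071-116075320 and holds the ETS motif in reverse near its start.
Ndufs5: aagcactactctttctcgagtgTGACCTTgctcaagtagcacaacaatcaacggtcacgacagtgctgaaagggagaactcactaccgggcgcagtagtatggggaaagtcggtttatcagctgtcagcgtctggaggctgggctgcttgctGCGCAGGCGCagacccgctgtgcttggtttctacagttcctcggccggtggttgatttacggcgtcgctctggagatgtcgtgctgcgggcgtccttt
Ndufaf4: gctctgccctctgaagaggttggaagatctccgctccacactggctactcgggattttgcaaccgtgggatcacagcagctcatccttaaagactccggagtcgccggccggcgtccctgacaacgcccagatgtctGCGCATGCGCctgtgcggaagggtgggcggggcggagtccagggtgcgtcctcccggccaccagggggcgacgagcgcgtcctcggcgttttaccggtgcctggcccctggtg
Sdhd: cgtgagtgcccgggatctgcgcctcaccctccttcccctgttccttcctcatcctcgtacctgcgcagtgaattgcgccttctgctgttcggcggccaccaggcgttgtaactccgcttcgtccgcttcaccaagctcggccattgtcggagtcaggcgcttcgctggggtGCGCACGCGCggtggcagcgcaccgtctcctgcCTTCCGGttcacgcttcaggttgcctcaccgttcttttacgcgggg
Uqcrh: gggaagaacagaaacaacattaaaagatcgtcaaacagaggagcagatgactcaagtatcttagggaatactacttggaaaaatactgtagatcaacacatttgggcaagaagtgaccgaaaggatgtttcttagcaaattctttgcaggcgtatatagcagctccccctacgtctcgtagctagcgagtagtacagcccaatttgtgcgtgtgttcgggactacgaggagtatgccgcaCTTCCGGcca

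The nuclear-encoded catalytic subunits of complex I carry the flavin and the iron-sulphur clusters, and 6 of them were members. Their median log2 difference was 0.013 and their range ran from -0.14 for Ndufs1 to 0.18 for Ndufs7. Ndufv1, which encodes the subunit that binds NADH and the flavin, gave 8129 and 8445 on the KO arrays, against 8430 and 8195 on the WT arrays. The groups overlapped and the log2 difference was -0.0046 with a 95% interval from -0.27 to 0.26. Ndufs1, the largest of the iron-sulphur subunits, gave 4169 and 3255 on the KO arrays, against 4128 and 3980 on the WT arrays. Only KO replicate 2 stood lower. Ndufs7, whose iron-sulphur cluster is the last before coenzyme Q, gave 5770 and 6344 on the KO arrays, against 5731 and 5007 on the WT arrays. Both KO arrays were above both WT arrays for Ndufs7, as for 26.2% of all tested genes, and the difference did not pass (limma adjusted p = 0.513). Ndufv2, Ndufs3 and Ndufs8, the other core subunits, had log2 differences of 0.059, 0.031 and -0.13. The 6 tested probe sets of Ndufs8 ran from -0.33 to 0.20, 5 of them lower and 1 higher in KO, and none passed.

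Accessory subunits surround the core and hold the complex together. Of 28, 27 were tested, 17 with a higher and 10 with a lower KO mean, with a median log2 difference of 0.039. The 12 members of the Ndufa series lay closest together, between -0.074 for Ndufa10 and 0.26 for Ndufa6. Ndufa1, a small membrane-anchored subunit, averaged 10554 ± 34.0 in KO tissue and 9170 ± 654 in WT tissue (SD, n = 2 each). Its log2 difference of 0.20 did not pass (limma adjusted p = 0.380), and its KO arrays lay above its WT arrays, as for 26.2% of all tested genes. Ndufa12, another accessory subunit, had a log2 difference of 0.17 on its brightest probe set and of -0.14 and -0.13 on its other tested probe sets, and none of them passed. Ndufab1, the mitochondrial acyl carrier protein, which also serves fatty acid synthesis in the mitochondrion, and close to the low end of the series, averaged 6454 ± 0.849 in KO tissue and 6688 ± 623 in WT tissue (SD, n = 2 each). The groups overlapped.

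Among the 10 tested genes of the Ndufb series the differences ran from -0.48 for Ndufb1 to 0.27 for Ndufb10, with a median of -0.014. Ndufb10, a subunit of the membrane arm, gave 4017 and 4009 on the KO arrays, against 3422 and 3241 on the WT arrays, a log2 difference of 0.27 that did not pass (limma adjusted p = 0.273). Ndufb1, a small membrane subunit, was dim, with 180 and 155 on the KO arrays, against 271 and 213 on the WT arrays. Its log2 difference was -0.48 with an interval from -0.99 to 0.022. Ndufb2, another membrane-arm subunit, gave 5027 and 6053 on the KO arrays, against 6847 and 5652 on the WT arrays, and its groups overlapped. Ndufb6, Ndufb3 and Ndufb11, also of the membrane arm, had log2 differences of -0.072, 0.095 and 0.13. Ndufb4 was the one gene not tested, since its single-symbol probe set gave 20.2 and 42.0 on the KO arrays, against 21.4 and 29.0 on the WT arrays, all below the limit of 126.

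Of the accessory subunits, Ndufs5 had the lowest and Ndufc2 the highest difference. Ndufs5, an intermembrane-space subunit held by disulphide bonds, gave 2921 and 2662 on the KO arrays, against 4659 and 4090 on the WT arrays. Each KO array was below each WT array, as for 27.5% of all tested genes, and the KO mean was 63.8% of the WT mean. The log2 difference was -0.64 with a standard error of 0.13 and an interval from -0.96 to -0.33 (limma adjusted p = 0.0614). This was the smallest adjusted p of all members, and it did not pass. Ndufs5 has only this single-symbol probe set. Another probe set is annotated to both Ndufs5 and its pseudogene Ndufs5-ps and was not used, and signal of the gene and of the pseudogene may not be told apart on the array. The upstream window of Ndufs5, printed above, holds the NRF1 letters and those of the oestrogen-related receptors.

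Ndufc2, a membrane-arm subunit, gave 7752 and 6939 on the KO arrays, against 4646 and 6176 on the WT arrays. Its log2 difference was 0.45 with an interval from 0.064 to 0.84 (limma adjusted p = 0.197). The other 2 tested probe sets of Ndufc2 gave 0.11 and 0.12. On each tested probe set of Ndufc2 both KO arrays lay above both WT arrays. Over all tested genes, with 1 probe set each, this held for 26.2%. The brightest probe set was low on WT replicate 1 alone, and without that array its difference was 0.25. Ndufs4, a subunit whose human gene is mutated in Leigh syndrome, gave 2122 and 1839 on the KO arrays, against 2097 and 1964 on the WT arrays, with a log2 difference of -0.039.

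Ndufa4 keeps its complex I symbol, although its protein is now assigned to complex IV. It gave 10307 and 9928 on the KO arrays, against 10139 and 9700 on the WT arrays, a log2 difference of 0.029. Its paralogue Ndufa4l2, a gene known to be induced by low oxygen, gave 454 and 265 on the KO arrays, against 377 and 382 on the WT arrays. The KO arrays lay on either side of the WT arrays for Ndufa4l2, and the interval from -0.73 to 0.49 was among the wider ones.

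Assembly factors build complex I and are not part of the finished enzyme. Of the 8, 4 had a higher and 4 a lower KO mean, and the lowest were Ndufaf4 and Ndufaf6, both early-acting factors. Ndufaf4 gave 708 and 794 on the KO arrays, against 1113 and 1050 on the WT arrays. Its log2 difference was -0.52 with an interval from -0.87 to -0.17 (limma adjusted p = 0.118). The dimmer Ndufaf4 probe set gave 684 and 664 on the KO arrays, against 882 and 873 on the WT arrays, a difference of -0.37. Both probe sets of Ndufaf4 were lower on each KO array than on either WT array, and neither passed. Over all tested genes, with 1 probe set each, 27.5% were lower in this way. The stricter NRF1 letters stand in its upstream window. Ndufaf6 gave 267 and 329 on the KO arrays, against 407 and 448 on the WT arrays, a log2 difference of -0.50 with an interval from -0.94 to -0.069 (limma adjusted p = 0.198). Ndufs5, Ndufaf4 and Ndufaf6 were the 3 members with an absolute log2 difference of at least 0.5, or 5.0% of those tested, against 17.1% of all tested genes. Ndufaf3, which acts with Ndufaf4, averaged 1205 ± 44.7 in KO tissue and 1030 ± 81.4 in WT tissue (SD, n = 2 each), so that these partners had differences of opposite sign, neither past the test. Ndufaf1, Ndufaf7, Ndufaf5, Ndufaf2 and Ndufaf8 had log2 differences of 0.0092, 0.038, 0.13, -0.13 and -0.16.

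**Figure D2:**
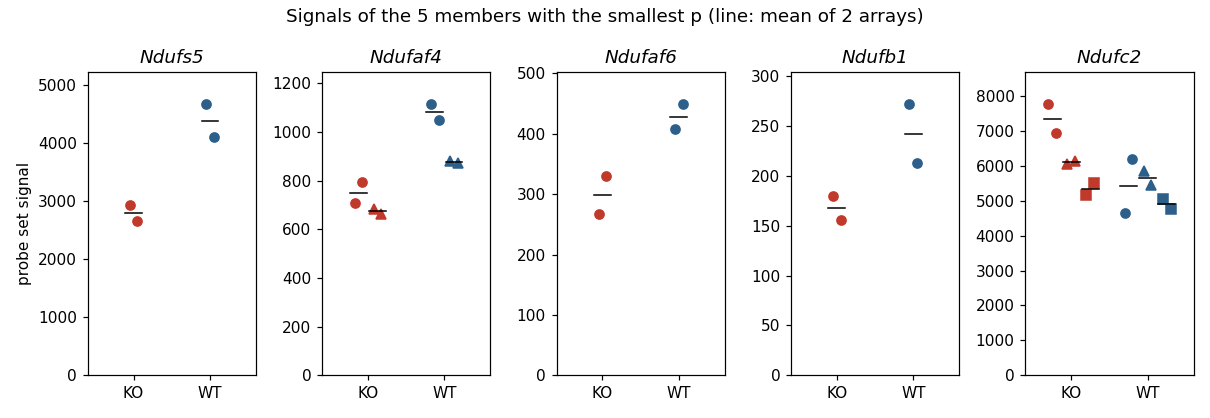
Probe set signals on each array of the 5 members with the smallest p, with KO to the left of WT, black lines for the mean of 2 arrays and a different marker shape for each tested probe set of a gene. Ndufs5, Ndufaf4, Ndufaf6 and Ndufb1 have both KO arrays below both WT arrays, as for 27.5% of all tested genes. For Ndufc2 the brightest probe set (circles) has both KO arrays above both WT arrays, as for 26.2% of all tested genes. This probe set is spread most on the WT arrays.

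Complex II is the only complex here whose subunits are all encoded in the nucleus, and it is also the succinate dehydrogenase of the tricarboxylic acid cycle. Its 4 subunits lay between -0.14 and 0.11. Sdha, the flavin-bearing subunit that oxidises succinate, gave 8747 and 8513 on the KO arrays, against 9164 and 9884 on the WT arrays. Both KO arrays lay below both WT arrays, as for 27.5% of all tested genes. The log2 difference of -0.14 did not pass (limma adjusted p = 0.549). The other tested probe set of Sdha gave 0.044. Sdhb, the iron-sulphur subunit, gave 8519 and 9014 on the KO arrays, against 9416 and 8702 on the WT arrays. Its groups overlapped. The membrane anchors Sdhc and Sdhd had log2 differences of 0.11 and -0.058.

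Of the complex II assembly factors, Sdhaf1, which helps to place the iron-sulphur clusters in Sdhb, gave 769 and 763 on the KO arrays, against 1010 and 851 on the WT arrays. The log2 difference was -0.27 (limma adjusted p = 0.385). Sdhaf2, which attaches the flavin to Sdha, gave 1368 and 1402 on the KO arrays, against 1182 and 1281 on the WT arrays, a difference of 0.17. Sdhaf3 and Sdhaf4 had differences of 0.14 and 0.16. The median over the 8 complex II genes was 0.032.

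Complex III had the most one-sided signs, with small sizes. Of its 9 genes 8 had a lower KO mean, the median log2 difference was -0.085, the range ran from -0.18 to 0.12, and 0 passed. The groups did not overlap for 5 genes lower in KO and 1 higher, against 27.5% and 26.2% of all tested genes. All 9 were also brighter on WT replicate 1 than on WT replicate 2. Relative to the WT mean, the median of the complex stood at -0.043 for KO replicate 1 and -0.071 for KO replicate 2, and at 0.056 and -0.056 for WT replicates 1 and 2, so the KO medians lay beside that of WT replicate 2. Without WT replicate 1 the median was -0.017.

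The nuclear-encoded catalytic subunits of complex III are cytochrome c1 and the Rieske protein. Cyc1, the gene of cytochrome c1, which carries the haem that reduces cytochrome c, gave 8275 and 8917 on the KO arrays, against 10208 and 8595 on the WT arrays. Only WT replicate 1 stood apart, above the other arrays. Uqcrfs1, the gene of the Rieske protein, gave 7838 and 7890 on the KO arrays, against 8257 and 7900 on the WT arrays, a log2 difference of -0.038. Uqcrc1 and Uqcrc2, the core proteins, related to mitochondrial processing peptidases, had differences of -0.12 and -0.092. Uqcrc1 averaged 9016 ± 247 in KO tissue and 9811 ± 789 in WT tissue (SD, n = 2 each), and Uqcrc2 averaged 7292 ± 366 in KO tissue and 7769 ± 33.0 in WT tissue.

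Small subunits made up the rest of complex III. Uqcrq, which lies next to cytochrome b, gave 8083 and 8235 on the KO arrays, against 10147 and 8389 on the WT arrays, and had the lowest difference of the complex at -0.18 with an interval from -0.49 to 0.14 (limma adjusted p = 0.516). Uqcr11, the exception in sign, gave 7385 and 7446 on the KO arrays, against 7218 and 6461 on the WT arrays, a difference of 0.12. Uqcrb, the brightest member, gave 14748 and 14939 on the KO arrays, against 15951 and 15019 on the WT arrays. Uqcrh, the acidic hinge protein, and Uqcr10 had differences of -0.085 and -0.0092. On the brightest probe set of each gene, every interval of complex III lay within 1.5-fold in either direction. The other tested probe sets of Uqcr10 had wider intervals, from -4.06 to 1.89 and from -1.80 to 1.27.

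**Figure D3:**
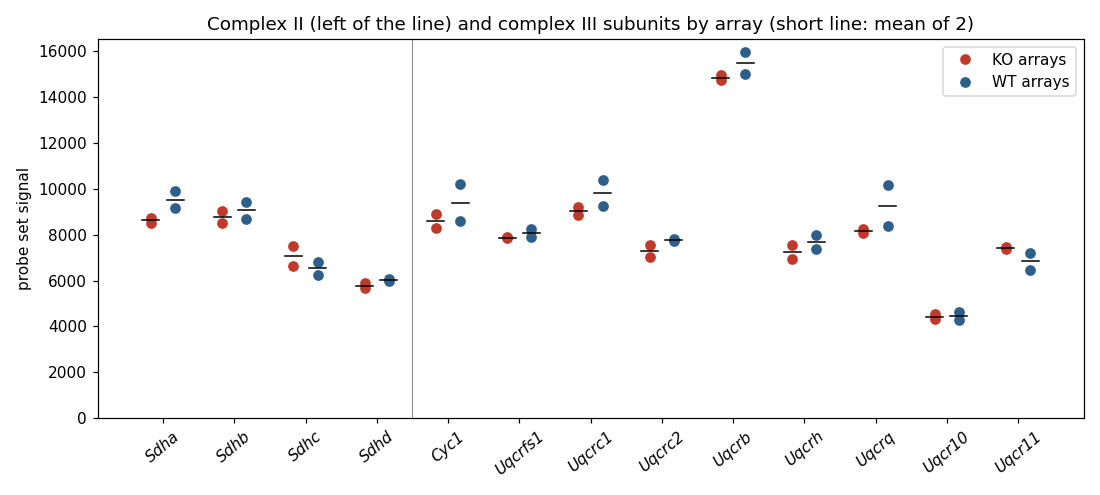
Probe set signals on each array for the 4 complex II subunits and the 9 complex III subunits, KO (left, red) beside WT (right, blue) for each gene, with short lines for the mean of 2 arrays. The signals of different probe sets are not comparable with each other. Within a gene the 2 groups lie close, and none passed the test. Both KO arrays lie below both WT arrays for Sdha, Sdhd, Uqcrq, Uqcrb, Uqcrc1, Uqcrc2 and Uqcrfs1, as for 27.5% of all tested genes. For Uqcr11 they lie above, as for 26.2% of all tested genes, and the other genes overlap.

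**Figure D4:**
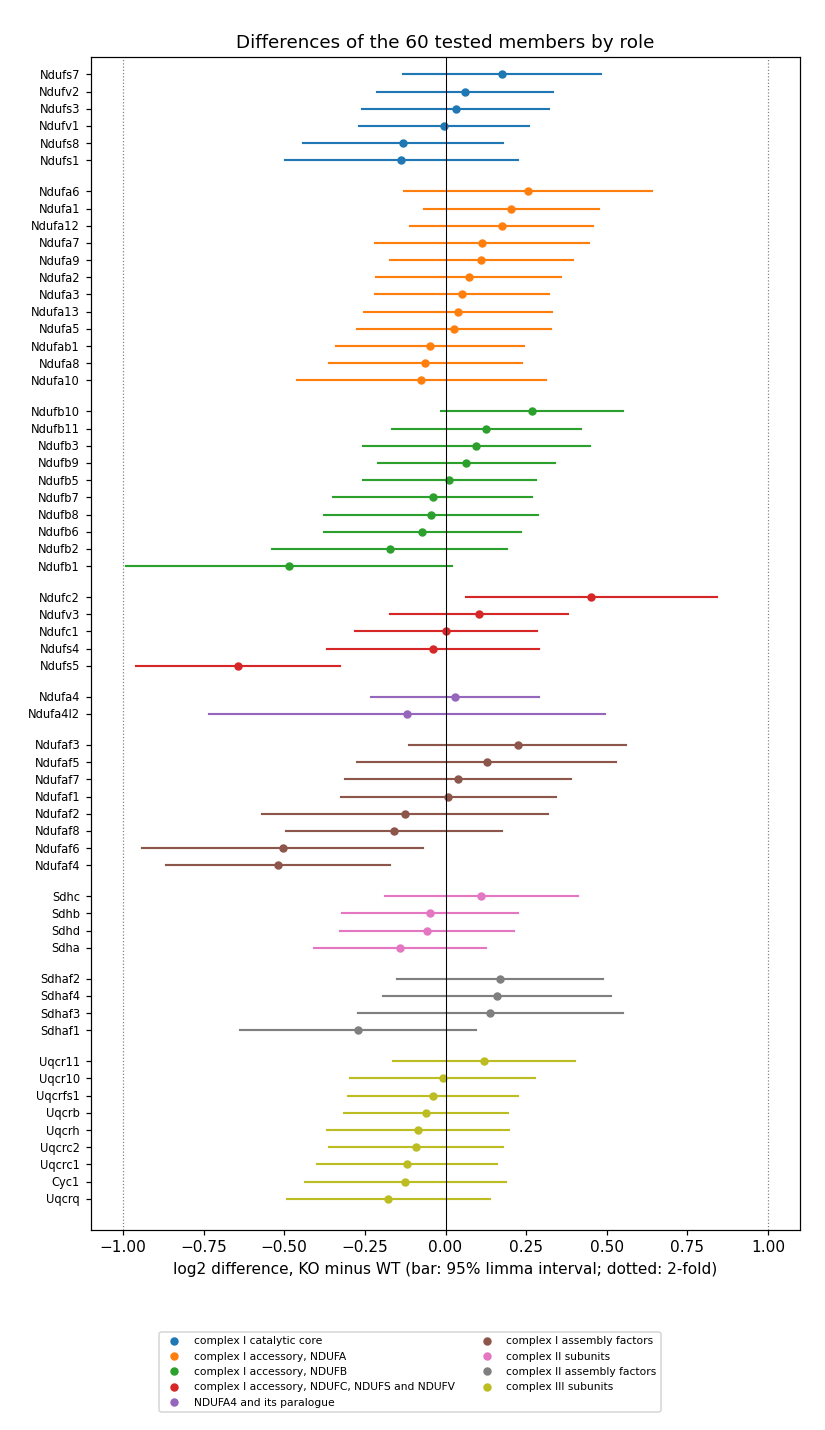
Log2 difference, KO minus WT, of the 60 tested members grouped and coloured by role, with 95% limma intervals as bars and 2-fold marked by dotted lines. All bars lie inside 2-fold, and the bars of Ndufs5, Ndufaf4, Ndufaf6 and Ndufc2 do not cross 0.

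Members with several probe sets gave a check within the array. Of 30 members with more than 1 tested probe set, 17 had all of them in 1 direction and 13 in both, and the median range between probe sets of a gene was 0.070. None of the 48 other tested probe sets passed (smallest limma adjusted p = 0.155). The widest ranges were those of Ndufaf8, with -0.16 and 1.10, and of Uqcr10, from -1.08 to -0.0092. Intervals beyond 2-fold were those of the Ndufaf8 probe set at 1.10, from 0.26 to 1.94, and of the Uqcr10 probe set at -1.08, from -4.06 to 1.89, among others. The Uqcr10 probe set with the difference of -1.08 gave 1122 and 32.3 on the KO arrays, against 474 and 488 on the WT arrays, so the KO arrays lay far apart on either side of WT.

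Of 131 listed genes of complex IV, ATP synthase, the tricarboxylic acid cycle, electron carriers and coenzyme Q synthesis, other assembly factors, biogenesis regulators, mitochondrial mass and the mitochondrial ribosome, 121 were tested, 44 had a higher and 77 a lower KO mean, and 0 passed. At an unadjusted p under 0.05 there were 9 of the 121, against 21.3% of all tested genes. The medians were -0.018 for 14 complex IV genes, -0.020 for 15 ATP synthase genes, -0.044 for 16 tricarboxylic acid cycle genes, 0.065 for 14 electron carrier and coenzyme Q genes, -0.064 for 13 other assembly factors, -0.073 for 15 genes of mitochondrial mass, -0.11 for 14 biogenesis regulators and -0.14 for 20 genes of the mitochondrial ribosome. Cox7a1, a complex IV isoform of heart, muscle and brown fat, came nearest to the threshold. It gave 481 and 600 on the KO arrays, against 910 and 1086 on the WT arrays (log2 difference -0.87, limma adjusted p = 0.0614). It passed where KO replicate 2 was left out. Cox7a1 also stands in the brown adipocyte list. At the other end of complex IV stood Cox6b2, a testis isoform, at 0.30. ATP synthase ran from -0.28 for Atpif1, its inhibitor, to 0.048 for Atp5l, a membrane subunit. The tricarboxylic acid cycle ran from -0.30 for Pdhb, of pyruvate dehydrogenase, to 0.15 for Idh3b, of isocitrate dehydrogenase. Cycs, which encodes the cytochrome c that complex III reduces, stood lowest of the electron carriers at -0.22. Among biogenesis regulators the lowest was Pprc1, a coactivator, at -0.52 (adjusted p = 0.215), and the highest was Ppara, a nuclear receptor of fatty acid oxidation, at 0.87 (adjusted p = 0.223).

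Some markers of skeletal muscle rose in KO tissue, and the main marker of brown fat fell. Of 14 tested skeletal muscle markers, 6 rose and 0 fell, with a median of 2.35. Over all tested genes 1.21% rose and 1.36% fell past the test. The number of muscle markers that rose was smaller or larger with an array left out, where a group holds 1 array. Their signals summed to 15121 and 9056 on the KO arrays, against 4367 and 2333 on the WT arrays, over 19 genes. The fast myosin genes Myh4 and Myh1 rose by 3.30 (limma adjusted p = 0.0138) and 2.51 (adjusted p = 0.0395), and the troponin gene Tnnc2 by 2.85 (adjusted p = 0.0297). Of 10 tested brown adipocyte markers, 1 fell and 0 rose, with a median of -0.56. The 11 on the array, Ucp1 among them, summed to 14635 and 17788 on the KO arrays, against 22815 and 26435 on the WT arrays. These sums carry the change of Ucp1. Both KO arrays lay below both WT arrays for 5 of the 10 tested, against 27.5% of all tested genes. The groups overlapped for the bright markers Cidea and Cox8b, with differences of -0.044 and -0.14. Ucp1, the uncoupling protein that defines thermogenic fat, gave 1038 and 1066 on the KO arrays, against 4614 and 9828 on the WT arrays (log2 difference -2.66, limma adjusted p = 0.0228). Fewer cells of a type and less RNA per cell cannot be told apart in such tissue samples, and the part of these markers in the levels of complexes I to III was not tested.

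Other cell types were checked in the same way. General epithelial markers, which the mammary label calls for, were present on all arrays, with sums over 23 genes of 37195 and 58291 on the KO arrays, against 54223 and 56564 on the WT arrays (median difference -0.40, with the keratin gene Krt7 higher and the transcription factor gene Ehf lower past the test, of 22 tested). Basal and myoepithelial markers summed to 24944 and 37858 on the KO arrays, against 35226 and 45002 on the WT arrays (median -0.43, with the oxytocin receptor gene Oxtr alone of 12 past the test, and lower). KO replicate 1 was the low array for both lists. Over all tested genes 1.21% passed as higher and 1.36% as lower in KO. Krt7, Ehf and Oxtr did not pass in every fit with an array left out, where a group holds 1 array. Relative to the WT mean, the medians on KO replicates 1 and 2 were 0.020 and 0.0072 for complex I, 0.062 and 0.0067 for complex II, and -0.043 and -0.071 for complex III, and the part of these markers in them was not tested. White adipocyte markers had a median of 0.11 and macrophage markers of 0.31, with 0 past the test in either list.

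**Figure D5:**
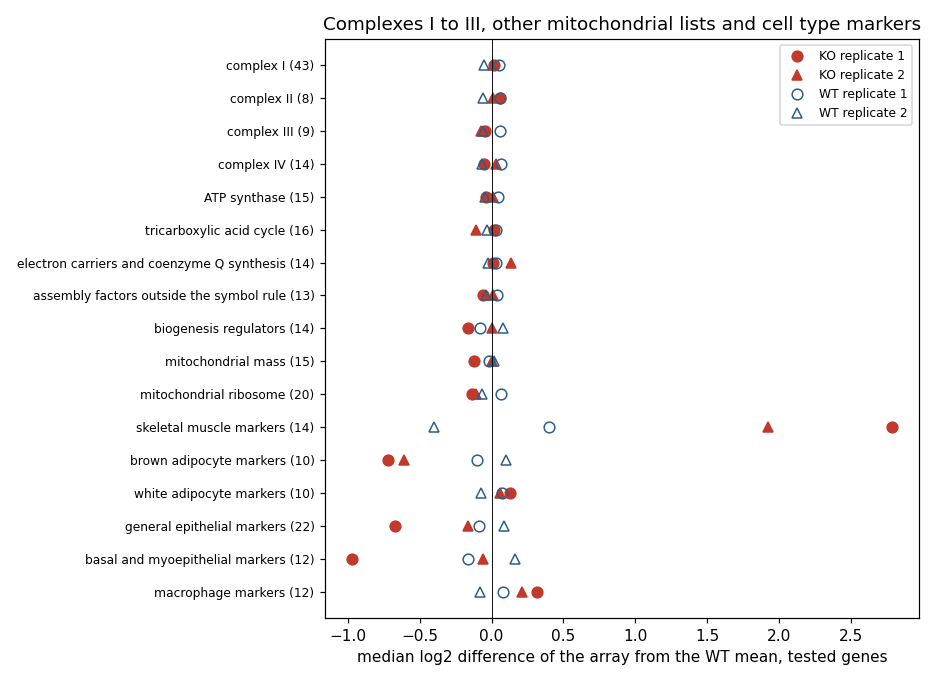
Median log2 difference of each array from the WT mean for complexes I to III, other mitochondrial lists and cell type markers, with the number of tested genes in brackets. Filled red symbols are KO arrays and open blue symbols WT arrays. Complexes I to III lie between -0.071 and 0.062 on all arrays, skeletal muscle markers reach 2.78 and 1.92 on KO replicates 1 and 2, and brown adipocyte markers -0.72 and -0.61.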

How the data were processed

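The authors deposited 1 linear intensity for each probe set and array, which the submitters' processing notes trace to MAS5, whose version and settings are not given in the sources used here. After the lowest and highest 2% of probe sets were left out, the mean signal was 497 to 498 on every array, as read from the deposited values, as a common scaling of the arrays would give. The 64 control probe sets were left out. Symbols came from the platform annotation, and all 61 member symbols matched RefSeq through Entrez identifiers. The 10 probe sets with several symbols that include a member's were not used.

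Signals were transformed as log2(signal + 16), a scale on which changes of dim genes come out too small. Probe sets with a mean log2 value at or above the median of all, 7.15 (a signal of 126), were tested with limma 3.58.1 in R 4.3.3 (lmFit, eBayes with a trend), with Benjamini-Hochberg adjustment over 22519 probe sets and a threshold of 0.05. The fit was tested on simulated data. With 2 arrays a genotype, 2 residual degrees of freedom remain, and p-values reflect the scatter among these 4 arrays alone, part of which may be technical. Intervals are limma's 95% intervals.

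The members, lists, motifs and tests were chosen with earlier results of these data known, so lists are described by counts and medians without a set test. Named were all members of complexes II and III, up to 3 members with the highest and 3 with the lowest difference in each complex I role group, and from other lists up to 3 members past the threshold or the extremes. The STAT5 genes and the widest-ranging probe sets were named outside this rule, the probe sets after their values were seen. Promoter coordinates are those of the RefSeq tables and not of the array. The wider NRF1 spelling was chosen after the stricter one had been searched.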

Additional observations from a re-analysis of the deposited data

How the results depend on the processing

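The number of members past the threshold was 0 under a pseudocount of 1 or 64, quantile normalization, median centring, no filter, a 75th percentile filter, no variance trend, the mean of all probe sets of a gene, and with each array left out. All genes past the threshold numbered from 27 with no filter to 599 without KO replicate 2. Ndufs5 had the smallest adjusted p of the members in each setting, from 0.0559 with quantile normalization to 0.211 without WT replicate 1 (limma). Centring each array on its median moved the median of all tested genes to 0.072, and the medians of complexes I, II and III to 0.11, 0.11 and -0.00334. A 75th percentile filter left fewer complex II genes and a median of -0.047. With an array left out the median of complex I ranged from -0.015 to 0.089 and that of complex III from -0.10 to -0.017. The other mitochondrial lists had 0 to 1 genes past the threshold with an array left out, Cox7a1 alone passing without KO replicate 2. Of 713 member differences under alternatives, 50 changed sign, over 29 members, and the largest main difference among these was 0.17 in size. No paired analysis was possible because the labels give no replicate numbers, and those used here follow the order of deposit and pair no arrays. With 2 arrays a genotype, a member that did not pass is not shown to be equal in KO and WT tissue.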
